A study of Homo sapiens with 12 samples.

Results

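The genes described here make cholesterol and fatty acids: 20 enzymes of sterol synthesis, 7 genes of SREBP regulation and sterol traffic, and 5 enzymes of fatty acid synthesis. GGPS1, an enzyme of an isoprenoid branch, is counted among the sterol enzymes throughout. The 32 genes were listed by symbol and matched to the Ensembl identifiers of the count tables, which hold 57773 genes. A match was found for 31 of them, and all 31 were among the 14714 genes with enough counts to be tested. ACACA, acetyl-CoA carboxylase, was not matched and is given no value, so the fatty acid arm below is FASN, SCD, ACLY and ELOVL6. HMGCS1 is ENSG00000112972 in these tables and TM7SF2 is ENSG00000149809.

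RNA was sequenced from T47D, a luminal breast cancer cell line, as poly(A)-selected stranded libraries. All cells carried a doxycycline-inducible short hairpin against PSMD2, which encodes a base subunit of the proteasome's 19S cap. The hairpin was left uninduced in control cells, and Lo19S cells were given doxycycline at 0.2 µg/ml for 3 days and then kept off it for 24 hours. Both kinds of cell then received DMSO (the vehicle) or 20 nM bortezomib, an inhibitor of the proteasome's catalytic core, for 16 hours, which gives 4 groups of 3 libraries. Lo19S cells had doxycycline and the hairpin together, so effects of either cannot be told apart. The design has 1 line and, as far as the labels say, 1 hairpin. The labels do not record whether replicate libraries are independent cultures, so a p-value here measures spread between libraries that may be technical.

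Animal cells build cholesterol from acetyl-CoA through mevalonate, isoprenoid diphosphates, squalene and lanosterol. The transcription factors SREBP-1 and SREBP-2, encoded by SREBF1 and SREBF2, are held in the endoplasmic reticulum with their escort SCAP by the INSIG proteins when sterols are plentiful, and otherwise travel to the Golgi, are cleaved and enter the nucleus. SREBP-2 is best known for driving sterol synthesis genes and SREBP-1 for driving fatty acid synthesis genes. Both arms are often active in breast cancer cells.

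PSMD2, the target of the hairpin, followed the labels in all 12 libraries. It lay at 392 to 417 CPM in control and 183 to 189 CPM in Lo19S libraries under DMSO, a log2 difference of -1.13 (adjusted p = 6.27e-30), and at 1510 to 1530 and 540 to 546 CPM under bortezomib. CPM is the count per 1e6 counts of the TMM-scaled library total, and every adjusted p is from edgeR's quasi-likelihood test, adjusted by Benjamini and Hochberg's method across all 14714, with a call below 0.05. Library totals were 7376597 to 15003480 counts. Control DMSO replicate 3 differed from its partners by a chi-square of 4.02 and 4.38 per degree of freedom, against 1.16 to 2.02 for all other pairs of replicates. Where the call of a named value changes without it, this is marked, and other changes are given as ranges over libraries left out. Summed luminal markers were 5250 to 6000 CPM under DMSO and 3780 to 3960 CPM under bortezomib. In control cells the means of KRT19 (1556 to 236.6 CPM), GATA3, FOXA1, ESR1 and KRT8 were lower under bortezomib and those of KRT18 (574.6 to 1012 CPM), CDH1 and EPCAM higher, and the part of these markers in the results was not tested. Of 4 fibroblast markers only COL1A1 was above 0.4 CPM in any library, with means of 27.3 and 28.8 CPM under DMSO and 64.4 (control) and 41.5 CPM (Lo19S) under bortezomib. Leukocyte, endothelial and adipocyte markers summed to at most 0.732, 0.372 and 2.87 CPM in any library. In such bulk RNA, fewer cells of a type and less RNA per cell cannot be told apart.

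The 250 bases before the start are printed for 7 genes named in results below. First are 4 of the 8 sterol enzymes whose bortezomib response was called lower in Lo19S cells (HMGCS1, MVD, MSMO1, NSDHL). The reductase that fell most (TM7SF2) and the regulators SREBF2 and INSIG1 follow. The stretches come from RefSeq on GRCh38.p14, a build other than that of the counts, at chr5:43313413-43313662 (minus strand), chr16:88663092-88663341 (minus), chr4:165327419-165327668 (plus), chrX:152830813-152831062 (plus), chr11:65111622-65111871 (plus), chr22:41832855-41833104 (plus) and chr7:155297628-155297877 (plus), in the order just named. Each reads 5′ to 3′ toward the gene. Capitals mark CCAAT, the core that NF-Y binds, or its reverse ATTGG, and in SREBF2 also a match to TCACNCCAC, a sterol regulatory element-like motif.
HMGCS1: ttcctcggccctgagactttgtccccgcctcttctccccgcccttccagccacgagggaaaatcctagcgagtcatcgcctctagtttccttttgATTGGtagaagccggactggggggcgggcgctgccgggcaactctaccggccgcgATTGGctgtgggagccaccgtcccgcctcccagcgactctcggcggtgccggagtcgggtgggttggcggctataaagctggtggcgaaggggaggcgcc
MVD: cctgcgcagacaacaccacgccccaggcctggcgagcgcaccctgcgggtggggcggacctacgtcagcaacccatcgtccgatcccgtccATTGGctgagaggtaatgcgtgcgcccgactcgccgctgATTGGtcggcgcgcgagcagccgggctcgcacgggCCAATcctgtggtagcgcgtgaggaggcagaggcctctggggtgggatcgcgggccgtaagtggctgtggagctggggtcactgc
MSMO1: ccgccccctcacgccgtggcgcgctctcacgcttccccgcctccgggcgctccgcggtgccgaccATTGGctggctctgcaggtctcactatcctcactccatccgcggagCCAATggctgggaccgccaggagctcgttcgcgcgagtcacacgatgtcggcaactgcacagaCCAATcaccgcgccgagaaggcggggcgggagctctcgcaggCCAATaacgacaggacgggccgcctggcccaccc
NSDHL: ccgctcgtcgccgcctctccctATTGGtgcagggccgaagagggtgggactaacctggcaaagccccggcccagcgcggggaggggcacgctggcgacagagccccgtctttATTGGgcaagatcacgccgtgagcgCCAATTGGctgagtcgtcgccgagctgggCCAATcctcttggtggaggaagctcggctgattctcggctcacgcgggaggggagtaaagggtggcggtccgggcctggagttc
TM7SF2: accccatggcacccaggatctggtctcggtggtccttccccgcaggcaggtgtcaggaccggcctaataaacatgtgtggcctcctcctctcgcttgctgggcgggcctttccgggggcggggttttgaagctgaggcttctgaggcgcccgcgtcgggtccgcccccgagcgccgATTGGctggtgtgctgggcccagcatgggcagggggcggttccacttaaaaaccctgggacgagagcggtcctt
SREBF2: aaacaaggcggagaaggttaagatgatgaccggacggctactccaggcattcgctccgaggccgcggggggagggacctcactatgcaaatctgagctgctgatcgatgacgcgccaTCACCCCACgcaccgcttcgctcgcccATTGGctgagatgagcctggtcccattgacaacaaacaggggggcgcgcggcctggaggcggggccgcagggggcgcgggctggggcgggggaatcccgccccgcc
INSIG1: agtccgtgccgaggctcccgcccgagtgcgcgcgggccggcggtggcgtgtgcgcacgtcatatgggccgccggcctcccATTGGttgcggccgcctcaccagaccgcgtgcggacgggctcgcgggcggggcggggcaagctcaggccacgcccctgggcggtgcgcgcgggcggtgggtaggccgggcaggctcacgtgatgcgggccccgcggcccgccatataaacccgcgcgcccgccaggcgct

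Of the 32 genes, 28 had an entry in the RefSeq promoter table, and ACAT2, FDFT1, SQLE and FASN had none. Motifs were searched on both strands of these 250 bases, each separately, so that matches may share bases, as a pair does in the NSDHL stretch. CCAAT was present in 17 of the 28 (60.7%), against 33% of all 27305 promoters of the table and 35.5% of the 10642 that belong to tested genes. The SP1 core GGGCGG was present in 25 (89.3%, against 42.3% of all and 67.8% of tested genes' promoters), and the E-box CACGTG in 3, namely SC5D, INSIG1 and SCAP (10.7%, against 6.49% and 8.91%). The motif TCACNCCAC matched only SREBF2 (3.57%, against 0.875% and 0.883%), as TCACCCCAC 133 bases before the start. NSDHL held 5 CCAAT matches, MSMO1 4, MVD 3, HMGCS1 2, and TM7SF2, SREBF2 and INSIG1 1 each. Of the other sterol enzymes with a called lower response in Lo19S cells, FDPS and EBP held 3 each, DHCR7 2 and IDI1 0. Sterol enzymes without a called difference of responses ranged from 0 (such as PMVK) to 5 (MVK). A link between these matches and the responses was not tested. A match is a string of letters and does not show binding. A missing match to 1 such string in 250 bases does not show that a gene lacks the element.

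Under DMSO, before any drug, the highest values per kilobase of exon in control cells were in the fatty acid arm: SCD at 97.3, ACLY at 82.5 and FASN at 75 CPM per kilobase. The divisor is the merged length of all annotated exons of a gene, which can exceed the length of its mRNA. The order of genes on this scale therefore depends on the annotation and is not a ranking of mRNA abundance. TM7SF2 (69) and FDFT1 (64), the squalene synthase, led the sterol arm, and ELOVL6 (5.51), INSIG2 (5.34), NPC1 (4.59), HSD17B7 and CYP51A1 (0.802) were lowest. CYP51A1, lanosterol demethylase, had 18 to 45 counts a library, and 79.4% of its exon bases are shared with other genes on the same strand in GENCODE 29, so its values are uncertain. The other members that share at least 10% of their exon bases are GGPS1 (37.3%, same strand) and, on the opposite strand, ACAT2 (52.3%), FDPS (18.6%), HMGCS1 (15%) and IDI1 (14.8%), and 9 more members share 0.469% to 7.88%. The strand setting of the count is not given in the sources used here.

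**Figure D1:**
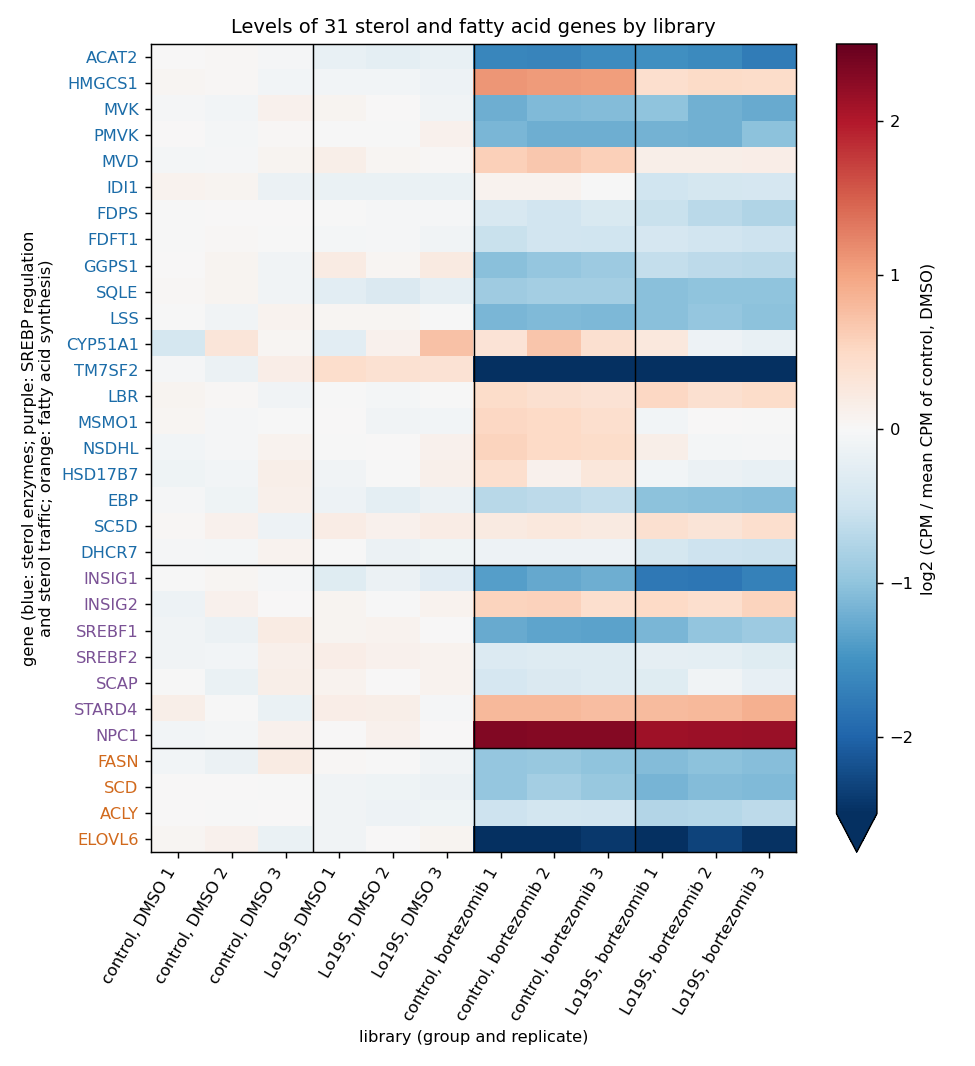
Level of each of the 31 genes in each of the 12 libraries, as log2 CPM minus the gene's mean over the control DMSO libraries (colour), with genes in rows by arm and libraries in columns by group. Bortezomib columns differ from DMSO columns for most genes, with TM7SF2 and ELOVL6 lowest and NPC1 highest, while the DMSO columns of both cell states differ little.

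Differences between the cell states under DMSO were small, at most 0.39 on the log2 scale among called genes. In Lo19S against control cells under DMSO, 4 of the 31 genes were higher, 7 were lower and 20 were not called, where 11.7% of all tested genes were called higher and 13% lower (24.7% in all, beside 11 of these 31). The largest differences were in TM7SF2, a sterol reductase of the step after lanosterol demethylation, and SQLE, the squalene epoxidase. The median log2 difference was -0.0084 for the 20 sterol enzymes, 0.0641 for the 7 regulators and -0.0653 for the 4 fatty acid enzymes, beside -0.0043 for all genes. The groups did not overlap for 10 of the 31 genes, as for 34.4% of all tested genes.

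TM7SF2 was at 229, 213.4 and 263.2 CPM in control and 318.2, 304.6 and 302.7 CPM in Lo19S libraries. Every Lo19S library was above every control library, by a log2 difference of 0.39 (SE 0.0477, adjusted p = 4.64e-08). SQLE was at 214.8, 221.3 and 198.1 CPM in control and 175.7, 165.2 and 181.2 CPM in Lo19S libraries, again without overlap but in the other direction (-0.28, adjusted p = 6.39e-07). ACAT2, the cytosolic thiolase that makes acetoacetyl-CoA, was at 114.7, 116.9 and 112.2 CPM in control and 100.1, 96.21 and 100.7 CPM in Lo19S libraries, all lower (-0.21, adjusted p = 0.000643). The other called sterol enzymes were IDI1, isopentenyl diphosphate isomerase (-0.17), EBP, the sterol isomerase (-0.17), SC5D, a sterol desaturase (0.16), and GGPS1, geranylgeranyl diphosphate synthase (0.16). The call of EBP was lost without control DMSO replicate 3 (adjusted p = 0.075) or Lo19S DMSO replicate 2 (adjusted p = 0.121). That of GGPS1 was lost without replicate 1 or 3 of either DMSO group (adjusted p = 0.0604 and 0.0628 for control, 0.147 and 0.142 for Lo19S). GGPS1 was also not called by DESeq2 (adjusted p = 0.0749) or with no filter on low counts (adjusted p = 0.12). EBP was not called when only the groups compared were fitted (adjusted p = 0.0702). Without control DMSO replicate 3, HMGCS1, the cytosolic HMG-CoA synthase, was called lower (-0.13, adjusted p = 0.00183).

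Among the regulators, INSIG1 was at 62.77, 65.09 and 61.97 CPM in control and 51.07, 56.97 and 51.94 CPM in Lo19S libraries under DMSO. All Lo19S values were lower (-0.25, adjusted p = 0.00119), whereas INSIG2 was at 19.26, 22.81 and 21.18 against 22.07, 20.83 and 22.44 CPM, with overlap and no call (0.0512, adjusted p = 0.721). SREBF2 was at 174.7, 176.6 and 202.2 CPM in control and 207.4, 198.2 and 195.8 CPM in Lo19S libraries, called higher (0.12, adjusted p = 0.032) although the highest control library lay among the Lo19S libraries. This call was lost without replicate 1 or 2 of either DMSO group (adjusted p = 0.261 and 0.172 for control, 0.208 and 0.0682 for Lo19S). DESeq2 (adjusted p = 0.0845), no filter on low counts (adjusted p = 0.183) and fitting only the groups compared (adjusted p = 0.0778) lost it too. SREBF1 ranged from 94.89 to 122.1 CPM in control and 106.7 to 112.6 CPM in Lo19S libraries and was not called (0.0641, adjusted p = 0.527), while without control DMSO replicate 3 it was called higher (0.18).

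In the fatty acid arm, SCD, the stearoyl-CoA desaturase, was at 522.7, 527.4 and 514.5 CPM in control and 492.5, 482.9 and 472.4 CPM in Lo19S libraries (-0.11, adjusted p = 0.0131). ACLY, ATP citrate lyase, was at 433.6, 425.7 and 431.9 against 407.1, 392 and 400.5 CPM (-0.11, adjusted p = 0.0162). For both, every Lo19S library was below every control library, but the call of SCD was lost without Lo19S DMSO replicate 3 (adjusted p = 0.0776) and that of ACLY without control DMSO replicate 1 (adjusted p = 0.05) or Lo19S DMSO replicate 2 (adjusted p = 0.0947). Both calls were also lost when only the groups compared were fitted (adjusted p = 0.0532 for SCD and 0.0754 for ACLY). FASN, fatty acid synthase, was at 668.8, 632.1 and 806.9 against 715, 693.2 and 662.5 CPM and was not called (-0.0244, adjusted p = 0.856). The control library at 806.9 CPM was replicate 3, and without it FASN was called higher in Lo19S cells (0.084, adjusted p = 0.0101).

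Bortezomib moved nearly all of these genes in control cells, the fatty acid arm downward and the sterol arm in both directions. Against DMSO, 10 of the 31 genes rose, 19 fell and 2 (IDI1 and HSD17B7, a ketoreductase acting on methylated sterols) were not called, where 39.2% of all tested genes rose and 42.2% fell (81.4% in all). All 4 fatty acid enzymes fell, 11 of 20 sterol enzymes fell and 7 rose, and 4 of 7 regulators fell and 3 rose. The median log2 changes were -0.95, -0.27 and -0.32 for the fatty acid, sterol and regulator groups, beside -0.043 for all genes. The groups did not overlap for 29 genes, as for 81.1% of all tested genes. Scaling to library totals in place of TMM moved the median of all genes by -0.38, and the split was then 4 higher and 21 lower (2 and 13 among the sterol enzymes, 2 and 4 among the regulators).

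TM7SF2 fell most, from 213.4 to 263.2 CPM down to 12.58, 12.58 and 13.81 CPM, with no overlap (18.1-fold, log2 change -4.18, SE 0.0774, adjusted p = 5.25e-33). LBR, the lamin B receptor, which carries the same reductase activity, rose from 122.6 ± 6.63 to 162.6 ± 5.8 CPM (SD, n = 3; log2 change 0.41, adjusted p = 3.29e-11). Per kilobase of merged exon length, TM7SF2 was above LBR in control DMSO cells (69 against 23.3 CPM per kilobase) and below it under bortezomib (3.81 against 30.9). The size of these gaps depends on the exon lengths used. Scaled to library totals, the call for LBR was lost (0.0241).

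HMGCS1, which joins acetyl-CoA to acetoacetyl-CoA, was at 185.2, 181.1 and 169.2 CPM under DMSO and 383.2, 375.3 and 367.3 CPM under bortezomib. Every treated library was above every untreated one, a 2.1-fold rise (log2 change 1.07, SE 0.0384, adjusted p = 2.29e-29). The enzymes on either side of it in the list moved the other way: ACAT2 was at 37.13, 36.3 and 38.59 CPM under bortezomib, a 3.07-fold fall (-1.62, adjusted p = 2.25e-29). MVK, mevalonate kinase, was at 79.84, 77.85 and 87.62 CPM before and 34.93, 38.2 and 38.82 CPM after (-1.13). PMVK, phosphomevalonate kinase, was at 74.18, 71.61 and 75.17 CPM before and 33.35, 31.74 and 31.56 CPM after (-1.19). Neither kinase had overlapping groups. MVD, which decarboxylates mevalonate diphosphate and so follows both kinases, rose from 73.81 ± 3.27 to 113.2 ± 3.84 CPM (SD, n = 3; 0.62, adjusted p = 1.74e-15).

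Further down the pathway, FDFT1 (-0.51) and FDPS, farnesyl diphosphate synthase (-0.41), fell, as did GGPS1 (-0.97) of the isoprenoid branch. SQLE fell from 198.1 to 221.3 CPM down to 114.7, 117 and 117.4 CPM (-0.86), and LSS, lanosterol synthase, fell from 147.7 ± 9.39 to 67.76 ± 0.947 CPM (SD, n = 3). Of the enzymes after lanosterol, MSMO1, the methylsterol oxidase, rose from 73.65, 69.65 and 70.24 CPM to 101.5, 100.9 and 95.63 CPM (0.48, adjusted p = 1.08e-11), without overlap. NSDHL, a sterol dehydrogenase of the same demethylation, rose by 0.50 and SC5D by 0.24, while EBP (-0.65) and DHCR7, the last reductase of one route to cholesterol (-0.12), fell. CYP51A1 was called higher (0.52, adjusted p = 0.036), a call lost without control DMSO replicate 1 (adjusted p = 0.235) or control bortezomib replicate 2 (adjusted p = 0.17). It was also lost with DESeq2 (adjusted p = 0.0862) and with no filter on low counts (adjusted p = 0.106). DHCR7 was not called by DESeq2 (adjusted p = 0.0501). Scaled to library totals, CYP51A1 (0.14), MSMO1 (0.10), NSDHL (0.12) and INSIG2 (0.15) lost their calls and SC5D was called lower (-0.14).

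The regulators also split. SREBF1 fell from 99.18, 94.89 and 122.1 CPM to 43.85, 42.32 and 41.56 CPM (-1.31, SE 0.0767, adjusted p = 2.26e-15), with no overlap. SREBF2 fell less, to 145.7, 148.2 and 148 CPM (-0.32), and SCAP fell by 0.36 on the log2 scale. INSIG1 fell to 24.31, 26.17 and 27.15 CPM (-1.29), whereas INSIG2 rose to 31.15, 31.63 and 28.22 CPM (0.53). Both separated fully from their DMSO libraries. Per kilobase of merged exon length, INSIG1 was above INSIG2 in control DMSO cells (17.3 against 5.34 CPM per kilobase). Under bortezomib it was close to INSIG2 (7.09 against 7.68), and the difference between the genes was not tested. Both comparisons depend on the exon lengths used. NPC1, which exports cholesterol from lysosomes, rose most of all members, from 44.19, 44.79 and 50.27 CPM to 232.4, 226.3 and 227.3 CPM (4.94-fold, log2 change 2.30, adjusted p = 8.34e-39). STARD4, a cytosolic sterol carrier, rose by 0.79.

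In the fatty acid arm, ELOVL6, an elongase of long-chain fatty acids, fell from 41.47, 43.02 and 36.05 CPM to 7.084, 6.013 and 7.503 CPM (5.87-fold, log2 change -2.55, SE 0.106, adjusted p = 8.41e-27). FASN fell to 358.5, 363.4 and 349.7 CPM (-0.98, adjusted p = 2.63e-07). SCD fell to 265.7, 290.1 and 272 CPM (-0.92) and ACLY to 300.2, 312.4 and 307 CPM (-0.49). No bortezomib library of any of the 4 genes reached the lowest DMSO library. Summed over the 4 genes the level went from 1695 ± 84.2 to 946.5 ± 22.1 CPM, while the 20 sterol enzymes summed to 2630 ± 8.73 and 2192 ± 17.1 CPM and the 7 regulators to 515.4 ± 34.7 and 581.6 ± 1.59 CPM (SD, n = 3). Without NPC1 the other 6 regulators summed to 469 ± 31.4 and 352.9 ± 2.41 CPM. A large part of the fall of the sterol sum came from TM7SF2, whose mean went from 235.2 to 12.99 CPM.

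**Figure D2:**
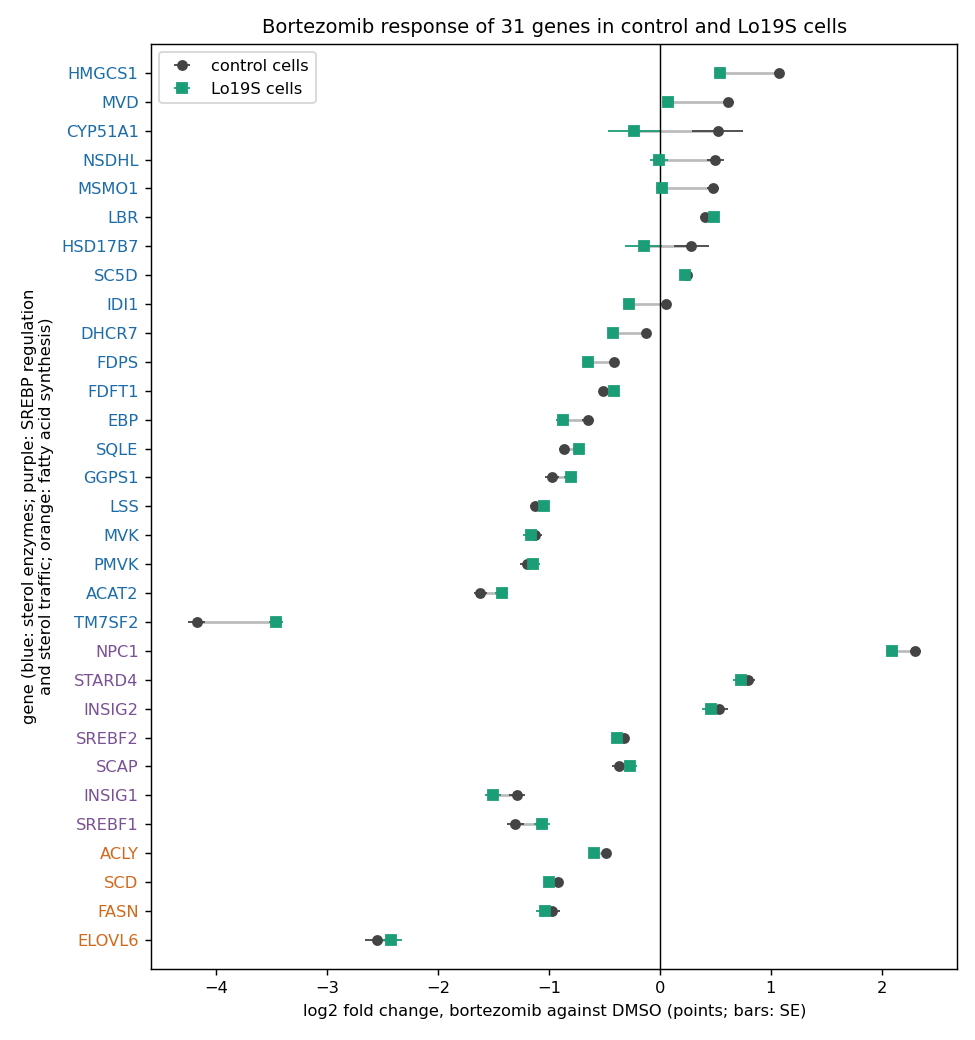
Log2 change from DMSO to bortezomib with its standard error (bars) in control and Lo19S cells for each of the 31 genes, by arm. The 4 fatty acid enzymes lie below 0 in both cell states, the sterol enzymes lie on both sides, and HMGCS1, MVD, MSMO1 and NSDHL lie lower in Lo19S cells.

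In Lo19S cells the fatty acid arm also fell, and 3 sterol enzymes rose where 7 had risen in control cells. Of the 31 genes, 6 rose and 20 fell, where 37.8% of all tested genes rose and 39.7% fell (77.5% in all). Among the sterol enzymes 3 rose (HMGCS1, LBR and SC5D) and 12 fell, and all 4 fatty acid enzymes fell. The medians were -1.02 for the fatty acid enzymes, -0.42 for the sterol enzymes and -0.27 for the regulators, beside -0.0218 for all genes. The groups did not overlap for 26 genes, as for 79.2% of all tested genes. Scaled to library totals, which moved the median of all genes by -0.29, 4 genes were higher and 25 lower (2 and 17 among the sterol enzymes), and SC5D then lay at -0.0655 without a call.

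HMGCS1 was at 169.1, 169.4 and 164.2 CPM under DMSO and 239.5, 247.9 and 245.4 CPM under bortezomib in Lo19S cells, a 1.46-fold rise with no overlap (0.54, adjusted p = 3.68e-17). MSMO1 was at 71.87, 66.87 and 67.44 CPM before and 67.97, 71.25 and 70.48 CPM after, with overlap and no call (0.0226, adjusted p = 0.71). MVD (0.0753, adjusted p = 0.185) and NSDHL (-0.009, adjusted p = 0.921) were also not called. Scaled to library totals, MSMO1 (-0.27, adjusted p = 2.06e-05), MVD (-0.21, adjusted p = 0.000272) and NSDHL (-0.30, adjusted p = 0.000738) were called lower. TM7SF2 fell from 302.7 to 318.2 CPM down to 29.87, 26.63 and 27.63 CPM (11-fold, log2 change -3.46, adjusted p = 1.33e-32). ELOVL6 was at 37.69, 40.62 and 42.11 CPM before and 7.168, 8.047 and 7.286 CPM after (-2.43), and NPC1 was at 46.85, 49.91 and 46.92 CPM before and 200.8, 205 and 206.3 CPM after (2.09). These 3 genes each had groups without overlap. MVK was at 85.41, 82.44 and 76.63 CPM before and 40.5, 35.7 and 34.05 CPM after (-1.16), and PMVK at 72.99, 73.32 and 79.3 CPM before and 32.25, 32.04 and 36.28 CPM after (-1.14), both without overlap. ACAT2 (-1.43), INSIG1 (-1.504), SREBF1 (-1.07), FASN (-1.04), SCD (-1.0001) and ACLY (-0.59) fell in these cells on the log2 scale, each from the DMSO values given above to the bortezomib values given with the next comparison.

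Under bortezomib, 10 of the 20 sterol enzymes were lower in Lo19S than in control cells, 3 were higher and 7 were not called. Of the 31 genes, 14 were lower and 4 higher, where 21.2% of all tested genes were called lower and 22% higher (43.1% in all). The sterol enzymes had a median log2 difference of -0.20 beside 0.0044 for all genes. The median was 0.0372 for the regulators and -0.14 for the fatty acid enzymes, of which SCD and ACLY were lower. The groups did not overlap for 23 genes, as for 52.9% of all tested genes. Scaled to library totals, which moved the median of all genes by 0.11, the split was 10 higher and 10 lower, and among the sterol enzymes 7 higher and 8 lower with a median of -0.0901. Summed, the 20 sterol enzymes stood at 1884 ± 25.2 CPM in Lo19S bortezomib libraries, each below each of the control bortezomib libraries (2173 to 2205 CPM).

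HMGCS1 was lower by every library (239.5 to 247.9 against 367.3 to 383.2 CPM), a log2 difference of -0.62 (SE 0.0381, adjusted p = 1.25e-18). MSMO1 (-0.51), IDI1 (-0.50), NSDHL (-0.47), MVD (-0.46), HSD17B7 (-0.42), EBP (-0.40), DHCR7 (-0.38), FDPS (-0.25) and SQLE (-0.15) were lower too, SQLE at 102.5, 105.2 and 105.9 CPM. Scaled to library totals, SQLE lost its call (-0.0431, adjusted p = 0.501). The call of HSD17B7 (adjusted p = 0.0374) rests on means of 4.89 and 6.52 CPM and was lost without control bortezomib replicate 1 or 3 (adjusted p = 0.153 and 0.0817) or Lo19S bortezomib replicate 2 or 3 (adjusted p = 0.0672 and 0.136). It was also lost with library totals (adjusted p = 0.128), DESeq2 (adjusted p = 0.103) and no filter on low counts (adjusted p = 0.103). GGPS1 (0.32) and SC5D (0.14) were higher, SC5D not without Lo19S bortezomib replicate 3 (adjusted p = 0.0703) or with DESeq2 (adjusted p = 0.0613). TM7SF2 also stood against the lower genes: its Lo19S libraries, though low, were 2.16-fold above the control libraries (log2 difference 1.11, SE 0.108, adjusted p = 1.53e-10). ACAT2, at 39.42, 37.9 and 34.34 CPM, MVK and PMVK in Lo19S cells overlapped the control libraries and were not called.

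INSIG1 was at 18.28, 18 and 19.62 CPM in Lo19S bortezomib libraries, below all control bortezomib libraries (-0.46, adjusted p = 2.35e-05), and INSIG2 at 29.75, 28.09 and 31.09 CPM was not called (-0.0222, adjusted p = 0.858). SREBF1, at 47.67, 52.97 and 55.9 CPM, was above all control bortezomib libraries (0.30, adjusted p = 0.00503), a call lost without Lo19S bortezomib replicate 3 (adjusted p = 0.057). SREBF2, at 157, 155.1 and 150 CPM, was not called (0.0613, adjusted p = 0.313), except with library totals (0.17, adjusted p = 0.00247). NPC1 was lower (-0.16, adjusted p = 0.00132), a call lost when scaled to library totals (-0.0529, adjusted p = 0.324). SCD, at 233.8, 246.2 and 244 CPM (-0.19), and ACLY, at 258.4, 264.1 and 272.7 CPM (-0.21), were below all control bortezomib libraries, and with library totals SCD lost its call (-0.0829, adjusted p = 0.0707). FASN, at 331.5, 343.3 and 336.1 CPM, also lay below them but was not called (-0.0849, adjusted p = 0.432), while it was called without control DMSO replicate 3 (adjusted p = 0.00915) and when only the groups compared were fitted (adjusted p = 0.0128), and ELOVL6 overlapped (0.12, adjusted p = 0.558).

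**Figure D3:**
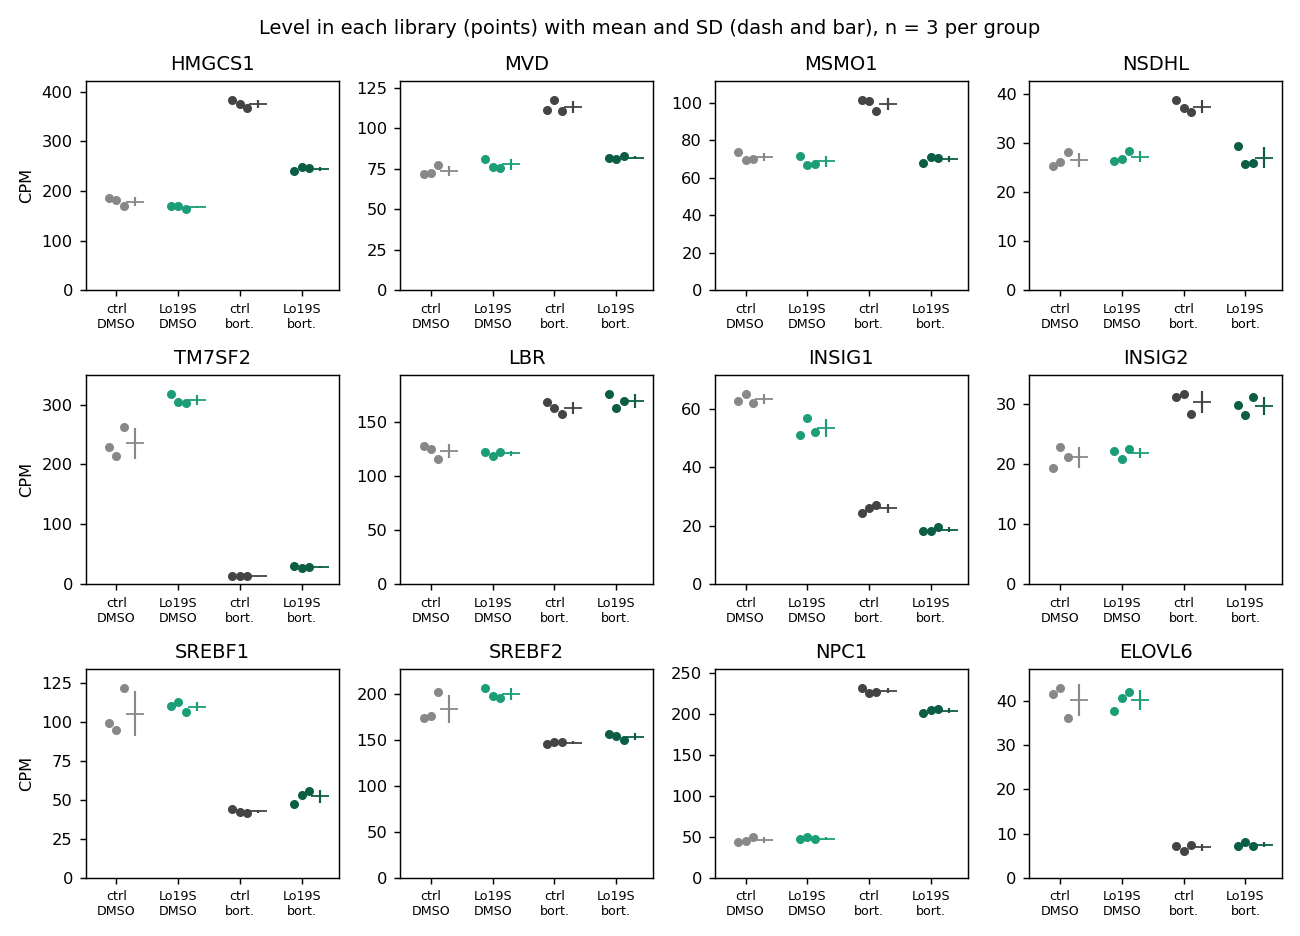
CPM in each library (points) of 12 of the genes, by group, with the mean and SD (dash and bar, n = 3). HMGCS1, MVD, MSMO1 and NSDHL are highest in control bortezomib libraries, TM7SF2, SREBF1 and ELOVL6 are low in both bortezomib groups, and INSIG1 and INSIG2 move in opposite directions with bortezomib.

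The difference between the bortezomib responses was tested directly as an interaction, the log2 change in Lo19S cells minus that in control cells. It was called for 10 of the 31 genes, 9 with a lower and 1 with a higher value in Lo19S cells, where 13.4% of all tested genes were called lower and 14.4% higher (27.8% in all). Sterol enzymes were 8 of the 9 and also the 1, the other being NPC1, and no fatty acid enzyme was called (-0.10 to 0.13). The median was -0.13 for the sterol enzymes, -0.0615 for the regulators and -0.0713 for the fatty acid enzymes, beside 0.0104 for all genes. Scaled to library totals the split was 7 higher and 6 lower. A missed threshold does not show that the fatty acid enzymes responded alike in both cell states, and without control DMSO replicate 3 the difference of FASN was called (-0.17, adjusted p = 0.000201).

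The rises seen in control cells were smaller or missing in Lo19S cells for MVD (difference -0.54, SE 0.0728, adjusted p = 6.7e-08), HMGCS1 (-0.53, SE 0.0551, adjusted p = 1.17e-10), NSDHL (-0.51, adjusted p = 0.000301) and MSMO1 (-0.46, adjusted p = 4.34e-06). Their responses were 0.48 to 1.07 in control cells and -0.009 to 0.54 in Lo19S cells. IDI1 fell in Lo19S cells (-0.28) and was not called in control cells (0.0525, adjusted p = 0.267), and the difference itself was called (-0.33, adjusted p = 6.39e-05). Scaled to library totals, IDI1 was called lower in control cells too (log2 change -0.329, adjusted p = 5.55e-09). DHCR7 (-0.30), FDPS (-0.23) and EBP (-0.23) fell further in Lo19S cells, and NPC1 rose less (-0.21, adjusted p = 0.0207). TM7SF2 fell less (0.72, SE 0.12, adjusted p = 1.59e-05). The differences of HMGCS1, MVD, IDI1, TM7SF2, MSMO1, NSDHL and DHCR7 were called under every alternative run, whereas that of EBP (adjusted p = 0.0381) was lost in 12 of 17. That of FDPS was lost without Lo19S bortezomib replicate 3 (adjusted p = 0.064) and with library totals (-0.14, adjusted p = 0.102). That of NPC1 was lost with library totals (-0.12, adjusted p = 0.216), with no filter on low counts (adjusted p = 0.0939) and without control DMSO replicate 1 or 2, Lo19S DMSO replicate 2 or control bortezomib replicate 1 (adjusted p = 0.0997, 0.058, 0.095 and 0.0551). INSIG1 (-0.22, adjusted p = 0.128) and SREBF1 (0.24, adjusted p = 0.1) were not called, but SREBF1 was without control DMSO replicate 1 or 2 or Lo19S bortezomib replicate 1 (adjusted p = 0.046, 0.0129 and 0.0368). SREBF1 was also called with library totals (0.33, adjusted p = 0.0215) and with no filter on low counts (0.26, adjusted p = 0.0241).

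**Figure D4:**
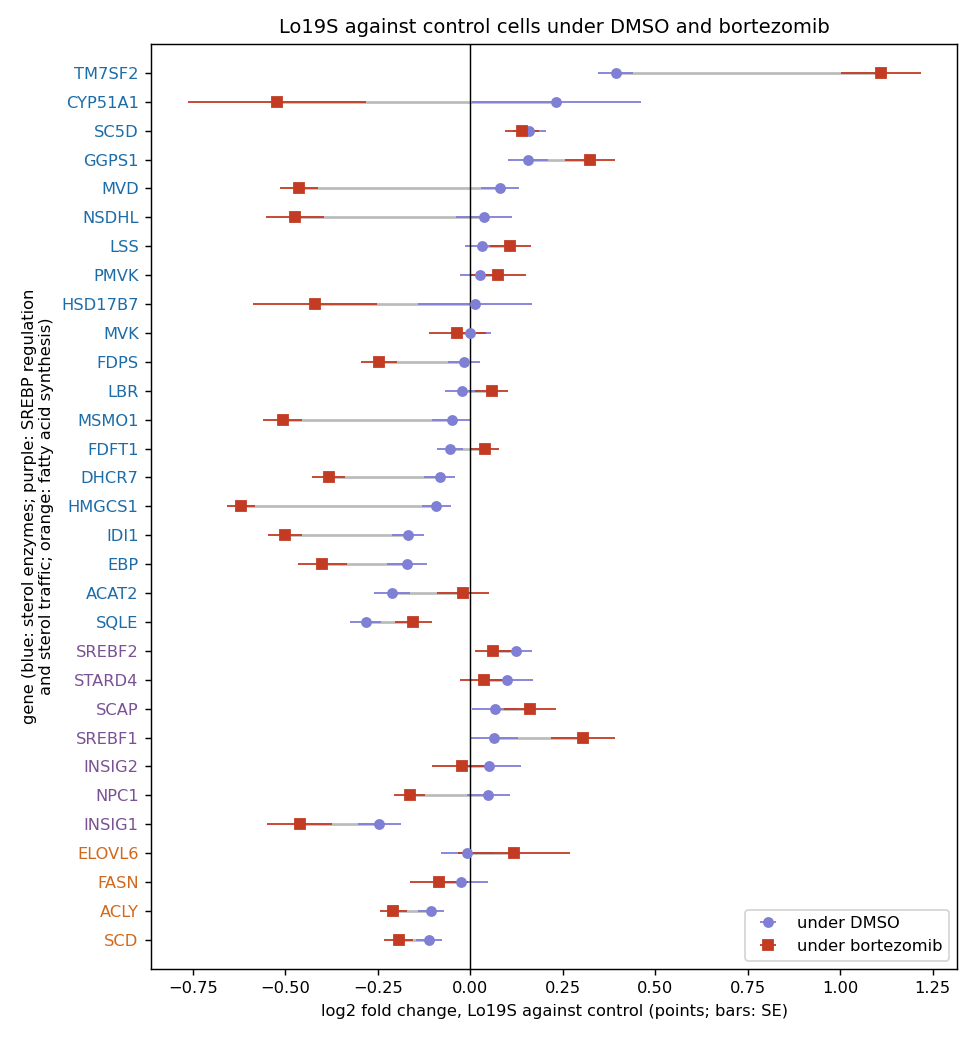
Log2 difference of Lo19S against control cells under DMSO and under bortezomib for each of the 31 genes, with standard errors (bars), by arm. Most differences under DMSO lie near 0, and under bortezomib HMGCS1, MSMO1, IDI1, NSDHL and MVD lie between -0.62 and -0.46 while TM7SF2 lies at 1.11.

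Genes of the same pathways outside the 32 were read from 4 lists. Their counts are to be read beside the share of all tested genes that rose and fell with bortezomib, 39.2% and 42.2% in control and 37.8% and 39.7% in Lo19S cells. Of 17 tested genes of fatty acid supply and modification, 5 rose and 9 fell with bortezomib in control cells and 5 rose and 8 fell in Lo19S cells (4 and 12, and 3 and 12, with library totals). ACACB, the mitochondrial acetyl-CoA carboxylase (-1.76 and -1.44), and SLC25A1, the citrate carrier (-1.58 and -1.55), fell in both, and HSD17B12, a reductase of fatty acid elongation, rose (1.603 and 1.57). Of the elongases in this list, ELOVL5 (180.9 to 424.6 CPM) and ELOVL7 (39.36 to 114.9 CPM) had higher means under bortezomib in control cells. ELOVL1 had a lower mean (147.9 to 68.47 CPM), like ELOVL6. The directions of these means were the same in Lo19S cells. FADS2, a fatty acid desaturase, was lower in Lo19S cells under DMSO (-0.39) and under bortezomib (-1.02), where 1 and 2 genes of the list were higher and 4 and 5 lower (2 and 3 under DMSO, 5 and 4 under bortezomib with library totals). All tested genes were called higher and lower at 11.7% and 13% under DMSO and 22% and 21.2% under bortezomib.

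Of 10 genes of SREBP processing and sterol-regulated degradation, 4 rose and 5 fell with bortezomib in control cells, and 6 rose and 4 fell in Lo19S cells (3 and 7, and 3 and 6, with library totals), beside 81.4% and 77.5% of all tested genes called in either direction. MBTPS1, the first protease to cut SREBPs, fell by 0.86 in control and 0.32 in Lo19S cells on the log2 scale, a called difference (0.54, adjusted p = 4.37e-12), and was 0.42 higher in Lo19S cells under bortezomib. RNF145, a ubiquitin ligase of sterol-regulated degradation, fell (-0.99 and -0.73), and FAF2, which recruits the p97 ATPase, rose (0.74 and 0.55). Under DMSO 1 was higher and 4 lower in Lo19S cells, RNF145 among the lower (-0.36), and under bortezomib 3 were higher and 2 lower (5 and 1 with library totals).

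Of 10 genes of efflux, esterification and oxysterol sensing, 6 rose and 3 fell in control and 4 rose and 3 fell in Lo19S cells (4 and 3, and 3 and 3, with library totals), beside the same shares of all genes. MYLIP, a ligase that degrades lipoprotein receptors, rose (1.52 and 0.57) and was lower in Lo19S cells under bortezomib (-0.93). NR1H3, the oxysterol receptor LXR alpha, fell (-1.05 and -1.02). ABCA1, a sterol exporter with 4 to 29 counts a library, rose in control cells (1.84) and was not called in Lo19S cells (-0.13, adjusted p = 0.762). Its means in control and Lo19S cells were 0.6104 and 1.295 CPM under DMSO and 2.215 and 1.169 CPM under bortezomib. The responses therefore started from different levels. Under DMSO 2 genes were higher in Lo19S cells, including LIPA, the lysosomal acid lipase (0.26), and none lower, and under bortezomib 2 were higher and 3 lower (2 and 1 with library totals).

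Of 10 genes of isoprenoid branches, 5 rose and 4 fell with bortezomib in either cell state (4 and 5, and 5 and 5, with library totals), again beside 81.4% and 77.5% of all genes. DHDDS, of dolichol synthesis (1.57 and 1.31), and RABGGTB, a subunit of Rab geranylgeranyl transferase (1.18 and 0.94), rose, and COQ2, of coenzyme Q synthesis (-1.38 and -1.06), fell. In Lo19S against control cells 1 was higher and 1 lower under DMSO, and 1 was higher and 3 lower under bortezomib (2 and 3 with library totals). Called differences between the bortezomib responses numbered 2 higher and 3 lower among the fatty acid supply genes, 4 and 1 among the SREBP processing genes, 1 and 3 among the efflux genes and 1 and 3 among the isoprenoid genes, 18 of 47 in all, where 14.4% of all tested genes were called higher and 13.4% lower. With library totals these counts were 3 and 3, 4 and 0, 1 and 3, and 2 and 1.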

How the data were processed

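The deposited tables hold whole-number counts per gene for 12 poly(A) RNA libraries. Per the submitters' processing notes, STAR 2.5.4b, featureCounts 1.6.1 and the build GRCh37 were used, and the strand setting is not given in the sources used here. Genes were fitted in edgeR 4.0.16 (R 4.3.3) with 1 coefficient per group over all 12 libraries, filterByExpr, TMM scaling and the robust quasi-likelihood test, which gave 5 comparisons. Standard errors are the log2 change divided by the square root of F. The script was tested on simulated data. Alternatives were library totals, RLE size factors, DESeq2 1.42.0, no filter on low counts, only the groups compared, a replicate block, and each library left out. The genes and the lists were chosen with earlier results of these data known. All 32 genes are named, with values per library for the 3 largest called changes of each arm in each pairwise comparison and for SREBF1, SREBF2, INSIG1 and INSIG2. Of the pathway lists, 47 of 50 genes were tested and up to 3 called genes per list are named. Means of ELOVL1, ELOVL5 and ELOVL7 are also given, for comparison with ELOVL6. Exon lengths, merged over all annotated exons of a gene, and shared exon bases are from GENCODE 29 on another build. Marker sums cover 8 luminal, 4 fibroblast, 4 leukocyte, 3 endothelial and 4 adipocyte genes. Depth was 7376597 to 15003480 counts per library, and p-values rest on 3 libraries per group.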

Additional observations from a re-analysis of the deposited data

Results flagged for a closer look

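The bortezomib response differed between Lo19S and control cells, by the interaction test in edgeR, for 10 of the 31 genes described and for 18 of 47 pathway genes, where 27.8% of all tested genes were called. Of the pathway genes, the 3 with the largest differences of each list are given. Values are the log2 change in Lo19S cells minus that in control cells. The response was lower in Lo19S cells for MVD (-0.54), HMGCS1 (-0.53), NSDHL (-0.51), MSMO1 (-0.46), IDI1 (-0.33), DHCR7 (-0.30), FDPS (-0.23), EBP (-0.23) and NPC1 (-0.21), and higher for TM7SF2 (0.72). Among pathway genes it was lower for ABCA1 (-1.97), MYLIP (-0.95), ACSL4 (-0.65), FADS2 (-0.63), FNTA (-0.33) and DHDDS (-0.26), and higher for MBTPS1 (0.54), PDSS2 (0.49), ELOVL1 (0.42), MBTPS2 (0.39), SOAT1 (0.27) and RNF145 (0.27). ABCA1 has 4 to 29 counts a library, and its call was lost without control bortezomib replicate 3 (adjusted p = 0.0554). Its mean under DMSO was already higher in Lo19S (1.295 CPM) than in control cells (0.6104 CPM), which enters the difference. The call of EBP was lost in 12 of 17 alternatives and that of RNF145 in 10, that of DHDDS without replicate 1 of either DMSO group (adjusted p = 0.0684 and 0.107), and that of SOAT1 without replicate 2 of control DMSO, Lo19S DMSO or control bortezomib (adjusted p = 0.105, 0.0866 and 0.0887). DHDDS also lost its call with library totals (adjusted p = 0.127) and no filter on low counts (adjusted p = 0.0593), and SOAT1 with DESeq2 (adjusted p = 0.0874).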

How the results depend on the processing

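Over all genes described, comparisons and alternatives, 2759 values were recomputed: 71 changed sign, of which 2 belonged to a call of the main analysis. Among values that kept their sign, 65 calls were lost and 37 gained. Some values without a call in the main analysis turned and were then called. With library totals, IDI1 in control cells was such a value (-0.33, adjusted p = 5.55e-09). In Lo19S cells MVD (-0.21, adjusted p = 0.000272) and MSMO1 (-0.27, adjusted p = 2.06e-05) were too. FASN under DMSO was another, without control DMSO replicate 3 (0.084, adjusted p = 0.0101). Replicate numbers do not pair the libraries (correlation of same-numbered deviations -0.072 to 0.026). With the replicate number as a block, the counts of members were as in the main analysis (4 higher and 7 lower under DMSO), and the only named value to lose its call was the RNF145 difference (adjusted p = 0.0538).

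With library totals, medians for sterol, regulator and fatty acid genes were -0.65, -0.70 and -1.33 (bortezomib, control), -0.71, -0.56 and -1.31 (bortezomib, Lo19S) and -0.0901, 0.15 and -0.0284 (cell states under bortezomib), and the difference of responses had -0.0387 for sterol and 0.022 for fatty acid genes. Members called higher were then 4, 10 and 7 for bortezomib in control cells, Lo19S under bortezomib and the difference. Without the filter the sterol and fatty acid medians were -0.34 and -1.02 (control) and -0.47 and -1.07 (Lo19S), and 2 members were higher under DMSO and 2 in the difference. DESeq2 called 2 members higher under DMSO, and fitting only the groups compared called 4 lower.

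Leaving out 1 library gave 2 to 5 members higher under DMSO (2 without control DMSO or Lo19S DMSO replicate 1), 2 to 5 under bortezomib (2 without Lo19S bortezomib replicate 3) and 1 to 4 in the difference (4 without control DMSO replicate 3, and 2 without control DMSO replicate 1 or 2 or Lo19S bortezomib replicate 1 or 3). Fatty acid medians were -0.10 to -0.0613 (DMSO), -0.98 to -0.90 (bortezomib, control) and -0.0905 to -0.0373 (difference), and the sterol median of the difference -0.17 to -0.10.

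Signs turned with library totals for SC5D (-0.14 in control, -0.0655 in Lo19S), IDI1 (-0.33) and HSD17B7 (-0.0956) in control cells, MVD (-0.21) and MSMO1 (-0.27) in Lo19S cells, ELOVL6 under DMSO (0.01), INSIG2 (0.0885) and FASN (0.026) under bortezomib, and FASN (0.0329) and SCD (0.0111) in the difference. Without the filter IDI1 was -0.0184 and MSMO1 -0.0283, and with only the groups compared ELOVL6 was 0.0041. With 1 library left out, the ranges crossed 0 for INSIG2 (DMSO, -0.0192 to 0.11), SREBF1 (DMSO, -0.0046 to 0.18), FASN (DMSO, -0.10 to 0.084), ELOVL6 (DMSO, -0.0795 to 0.0369), IDI1 (bortezomib, control, -0.0191 to 0.0944), CYP51A1 (bortezomib, Lo19S, -0.45 to 0.0506), NSDHL (bortezomib, Lo19S, -0.0632 to 0.0421), ABCA1 (bortezomib, Lo19S, -0.56 to 0.11), INSIG2 (Lo19S under bortezomib, -0.0711 to 0.0135) and FASN (difference, -0.17 to 0.0123). Causes were not tested.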
